A study of Mus musculus with 6 samples.

Results

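The binding sites of RCOR2 and RCOR3 in the mouse embryonic stem cell line E14 were compared, from the peak list that the authors deposited for each protein. Sites had been mapped by ChIP-seq, the sequencing of DNA that is precipitated with a protein, at passages 15 to 18. RCOR2 and RCOR3 were each precipitated with a V5 antibody from E14 lines that stably carried a V5-tagged RCOR2 or a V5-tagged RCOR3 transgene, which the series describes as expressed at a low level. REST, the DNA-binding partner of both proteins, was precipitated from E14 with an antibody against REST itself. Of the other proteins whose lists are used here, SIN3A was likewise precipitated without a tag from E14, and RCOR1 through V5 from a line with a V5-tagged transgene. SIN3B was also precipitated with the V5 antibody from a transgenic line, although its transgene label reads VG. Comparisons between lists therefore set tagged lines beside untagged cells. Each protein was represented by 1 library, and the labels do not say whether a tagged line was 1 clone. Promoters driving the transgenes are not named in the sources used here, and no V5 precipitation from an untagged line was analysed here.

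All peaks of the RCOR2 and RCOR3 lists were members, apart from those with a midpoint between 165.3 and 165.4 Mb on chromosome X. This left 437 of 459 RCOR2 peaks and 3729 of 3744 RCOR3 peaks, together 4166 of the 14023 peaks in all 6 lists of the series. An RCOR2 and an RCOR3 peak were called shared when they lay on the same chromosome with midpoints less than 400 bp apart, and a peak was called at REST by the same rule. Positions are on mouse build mm8 as listed by the authors. No gene annotation or sequence of that build was used here, so sites are given by position only.

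RCOR1, RCOR2 and RCOR3 form the CoREST family. Their ELM2 and SANT domains connect histone deacetylases with the histone demethylase LSD1, and REST, a zinc finger protein that binds RE1 elements, is the best known factor bringing them to DNA. RCOR2 is known as a CoREST protein of pluripotent cells and neural progenitors. SIN3A and SIN3B, mapped in the same series, are scaffolds of a different deacetylase complex that also joins REST.

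The lists differed greatly in length, while their peaks looked alike in shape. Median width was 60 bp in both, and 179 of 437 RCOR2 peaks and 1450 of 3729 RCOR3 peaks had the minimum width of 40 bp. The widest RCOR2 peak measured 300 bp and the widest RCOR3 peak 3060 bp. Each peak carries a score whose meaning the authors did not state. It was used here only to rank peaks within their own list, as a percentile with 100 at the top. RCOR2 scores ran from 7.04 to 52.01 with 36 distinct values, and 123 peaks shared the score 10.55. RCOR3 scores ran from 9.20 to 378.03 with 130 distinct values, and 882 peaks shared the score 10.87. Many peaks therefore have tied percentiles. Read depth is unknown, so the list lengths cannot be read as amounts of binding, and absence from a list cannot be told apart from a signal under the authors' threshold.

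By midpoint distance, the shared sites made up a far larger part of the RCOR2 list than of the longer RCOR3 list. Of the 437 RCOR2 peaks, 249 had an RCOR3 peak (57.0%, exact 95% Clopper-Pearson interval 52.2 to 61.7%). Of the 3729 RCOR3 peaks, 251 had an RCOR2 peak (6.73%, 5.95 to 7.58%). These were 249 one-to-one pairs plus 2 RCOR3 peaks that each lay beside a better-placed one at the same RCOR2 site. The other 188 RCOR2 peaks and 3478 RCOR3 peaks were found in 1 of these lists only. Both shares count nearly the same pairs, so their difference follows from the list lengths. Against the 447 highest-scoring RCOR3 peaks alone, a number close to the length of the RCOR2 list, 119 of 437 RCOR2 peaks were shared (27.2%). Of those 447 RCOR3 peaks, 119 were shared (26.6%). When listed intervals had to overlap by at least 1 bp, 204 of 437 RCOR2 peaks were shared (46.7%, 41.9 to 51.5%), which is no longer a majority. With 1 library per protein no test between libraries was possible, and all intervals cover counting error only, since peaks are not replicates.

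Shared sites coincided closely. The midpoints of the 249 pairs were a median of 30 bp apart, 118 pairs lay within 20 bp (47.4%), 242 within 100 bp (97.2%), and the farthest pair was 180 bp apart. The RCOR3 midpoint had the higher coordinate in 114 pairs and the lower in 107, and it was identical in 28. Start and end were both identical in 21 pairs, and the listed intervals overlapped in 203 pairs (81.5%). The starts of all peaks lay on a grid of 20 bp, so offsets under that size carry little information.

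**Figure D1:**
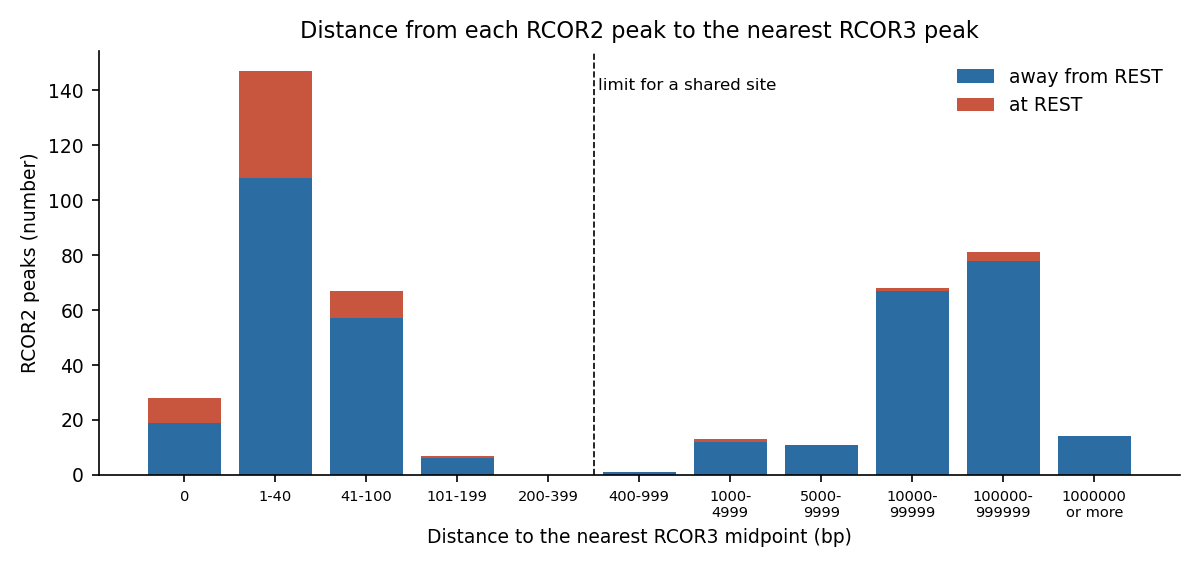
Number of RCOR2 peaks (vertical axis, 437 in all) by distance to the nearest RCOR3 midpoint (horizontal axis, bp, classes of unequal size), split by presence of a REST peak. The dashed line marks the limit for a shared site. No RCOR2 peak had its nearest RCOR3 midpoint between 200 bp and that limit, and 1 had it between 400 and 1000 bp.

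Between shared and unshared RCOR2 sites there was a wide gap, so the limit of 400 bp decided almost nothing. The pairs just inside it had midpoints 180 bp apart at chr2:180652651-180652751 and 170 bp apart at chr12:109531431-109531491, counted from the RCOR2 side. The RCOR2 peak just outside, at chr4:134437091-134437131, had its nearest RCOR3 midpoint 880 bp away. The next, at chr4:3011971-3012011, lay 1130 bp from the RCOR3 midpoint but inside the widest RCOR3 interval, chr4:3009331-3012391, so its status rests on the use of midpoints. From the RCOR3 side, the 2 secondary peaks lay 340 bp from RCOR2 at chr3:96169811-96169931 and 230 bp at chr15:89281531-89281591. Just outside were RCOR3 peaks 450 bp away at chr16:96250531-96250571 and 510 bp away at chr11:35684351-35684451. RCOR2-only peaks lay a median of 106920 bp from the nearest RCOR3 midpoint (quartiles 30835 and 313325 bp). RCOR3-only peaks lay a median of 1024860 bp from the nearest RCOR2 midpoint.

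REST divided the RCOR2 list sharply. A REST peak was present at 64 of the 437 RCOR2 peaks (14.6%, 11.5 to 18.3%) and at 957 of the 3729 RCOR3 peaks (25.7%, 24.3 to 27.1%). At REST, 59 of 64 RCOR2 peaks had RCOR3 (92.2%, 82.7 to 97.4%). Away from REST, 190 of 373 did (50.9%, 45.7 to 56.1%). RCOR3 was at 1003 of all 3080 REST peaks (32.6%), and at 297 of the 308 from percentile 90 of REST score upward (96.4%). Of the 69 REST peaks with both RCOR2 and RCOR3, 49 lay in that upper range. Another 10 lay under percentile 50, where RCOR3 was at 11.5% or less of REST peaks in each band of 10 points. The part of REST score in the share of 92.2% was not tested. Seen from the shared sites, 59 of 249 RCOR2 peaks lay at REST (23.7%, 18.6 to 29.5%), against 5 of 188 RCOR2-only peaks (2.66%, 0.869 to 6.10%). Most shared sites, 190 of 249, thus had no REST peak. They were not near misses of one either, with a median distance of 182225 bp to the nearest REST midpoint (quartiles 75387.5 and 435185 bp).

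For RCOR3, the intervals of the share with RCOR2 overlapped at REST (60 of 957, 6.27%, 4.82 to 8.0%) and away from REST (191 of 2772, 6.89%, 5.98 to 7.90%). The order of these shares was turned by matching listed intervals (6.31% at REST, 5.24% away) and by keeping the chromosome X stretch (7.22% and 6.96%). RCOR3 peaks at REST ranked much higher in their list, at a median percentile of 75.7 against 35.3 away from REST. When peaks of like rank were compared, which was done after the data had been seen, RCOR2 was found less often at REST. From percentile 80 upward, RCOR2 was present at 56 of 421 RCOR3 peaks at REST (13.3%, 10.2 to 16.9%) and at 91 of 314 away from REST (29.0%, 24.0 to 34.3%). Between percentiles 60 and 80 the shares were 0.556% at REST (1 of 180, 0.0141 to 3.06%) and 7.71% away (36 of 467, 5.46 to 10.5%). The gap was also seen in narrower bands near the top. Between percentiles 80 and 90 the shares were 2.21% at REST (4 of 181, 0.605 to 5.56%) and 18.4% away (36 of 196, 13.2 to 24.5%). Between percentiles 90 and 95 they were 5.88% (6 of 102, 2.19 to 12.4%) and 35.9% (23 of 64, 24.3 to 48.9%), and between 95 and 99 they were 18.3% (19 of 104, 11.4 to 27.1%) and 57.7% (30 of 52, 43.2 to 71.3%). In each of these 3 bands the intervals did not overlap. In the bands of 20 points below percentile 60 they did overlap, with 1 shared RCOR3 peak at REST in each band. The shares there were 0.8% at REST and 3.09% away below percentile 20. They were 1.30% and 1.85% between percentiles 20 and 40, and 0.649% and 4.68% between 40 and 60. At the very top, from percentile 99, RCOR2 was present at 27 of 34 RCOR3 peaks at REST (79.4%, 62.1 to 91.3%) and at both of the 2 away from REST, too few to compare. With the RCOR3 list limited to its 447 highest peaks, RCOR2 was present at 18.6% of those at REST and at 41.4% of those away from REST.

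**Figure D2:**
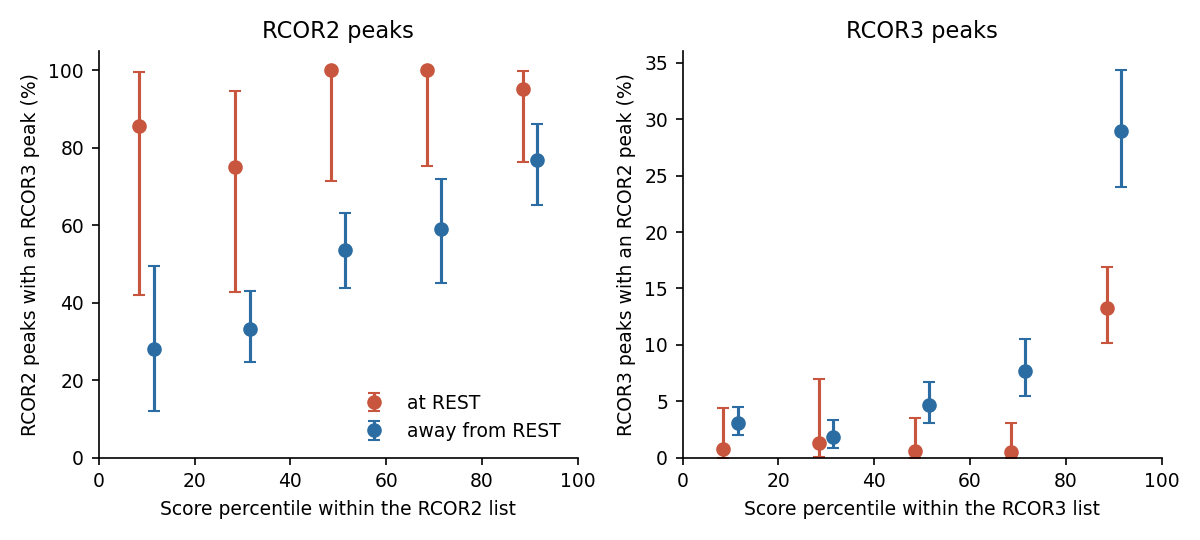
Share of peaks with a peak of the other protein (vertical axes, %, on different scales) by score percentile within the list (horizontal axes, bands of 20 points), for RCOR2 peaks (left) and RCOR3 peaks (right), at and away from REST. Bars are exact 95% Clopper-Pearson intervals. In the RCOR2 list sharing was commoner at REST, whereas in the highest RCOR3 band it was 13.3% at REST and 29.0% away.

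Shared sites ranked higher than unshared ones in both lists. The median percentile of RCOR2 peaks was 57.6 for shared peaks (interval of the median 57.6 to 67.5) and 21.4 for RCOR2-only peaks (21.4 to 43.5). The latter value stood at 43.5 when peaks were instead matched by overlap of their listed intervals, and at 42.3 with the chromosome X stretch kept, since it falls on the edge of a block of tied scores. For RCOR3 it was 87.2 for shared peaks (81.4 to 89.8) and 49.3 for RCOR3-only peaks. All of the 11 highest-scoring RCOR2 peaks and all of the 10 highest-scoring RCOR3 peaks were shared. Among the 55 highest RCOR2 peaks 47 were shared, 13 at REST and 34 away from it. Among the 50 highest RCOR3 peaks 37 were shared, of which 32 lay at REST.

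Away from REST, sharing rose with RCOR2 rank, from 28.0% (7 of 25, 12.1 to 49.4%) below percentile 20 to 33.3% (37 of 111), 53.6% (60 of 112), 58.9% (33 of 56) and 76.8% (53 of 69, 65.1 to 86.1%) in successive bands of 20 points. At REST the share was already 85.7% (6 of 7) below percentile 20 and 75% (9 of 12) in the next band. It was 100% in the middle bands (11 of 11 and 13 of 13) and 95.2% (20 of 21) from percentile 80. Low-scoring RCOR2 peaks at REST were thus mostly RCOR3 sites, with wide intervals because each band holds few peaks.

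Among the 249 pairs, ranks in both lists rose together only loosely, with a Spearman rho of 0.354 over all pairs, 0.491 over the 59 at REST and 0.395 over the 190 away from REST. The pairs are sites of the same libraries and no p-value is given. RCOR3 had the higher percentile in 57 of 59 pairs at REST and in 124 of 190 away from REST. At REST the median percentiles were 67.5 for RCOR2 and 98.9 for RCOR3. Away from REST they were 57.6 and 78.9. The RCOR3 list is the longer one, and the part of list length in this order was not tested.

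**Figure D3:**
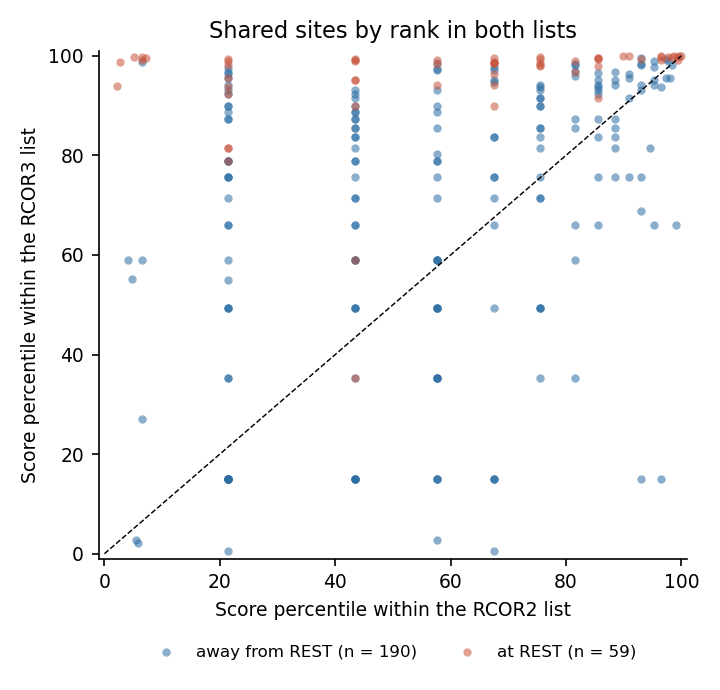
Each point is 1 of 249 shared sites, placed by its score percentile within the RCOR2 list (horizontal axis) and within the RCOR3 list (vertical axis). The dashed line marks equal percentiles, and columns of points are tied RCOR2 scores. Sites at REST crowd along the top, with RCOR3 the higher in 57 of 59.

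The strongest shared sites at REST carried every protein mapped. At chr7:6014211-6014251, RCOR2 scored 52.01 and RCOR3, with a midpoint 20 bp away, scored 378.03, each the highest of its list, and the REST peak there had the highest REST score of 1121.33. The site at chr19:4989131-4989191 scored 33.92 for RCOR2, 234.18 for RCOR3 and 696.98 for REST. The next were chr15:72395971-72396031 (27.89 for RCOR2, 141.34 for RCOR3), chr9:21700851-21700891 (33.17 and 59.38) and chr14:62635791-62635831 (23.37 and 237.52). RCOR1, SIN3A and SIN3B peaks were present at all 5 of these sites.

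By contrast, none of the 5 strongest shared sites away from REST had an RCOR1, SIN3A or SIN3B peak. This was not particular to the strongest, since 177 of all 190 shared sites away from REST (93.2%) had none either. At chr14:44354011-44354051 the RCOR2 and RCOR3 intervals were identical, with scores of 22.61 and 40.14, and the nearest REST midpoint was 1909750 bp away. The site at chr7:48996071-48996111 scored 20.35 for RCOR2 and 66.07 for RCOR3. The broader one at chr10:8579891-8580091, 200 bp wide for RCOR2 and 240 bp for RCOR3, scored 21.86 and 29.27. The peak at chr12:4576011-4576051 scored 20.35 and 29.27, and a site on chromosome 18 scored 21.11 and 52.69. These RCOR2 scores lie at percentiles 97.3 to 98.4, so the sites without REST reach the top of the RCOR2 list.

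The company of other corepressors differed strongly between these kinds of site. Over the whole lists, a SIN3B peak lay at 19.2% of RCOR2 and 27.9% of RCOR3 peaks, a SIN3A peak at 11.4% and 7.19%, and an RCOR1 peak at 6.86% and 1.50%. At the 59 RCOR2 peaks shared with RCOR3 at REST, SIN3B was present at 58 (98.3%, 90.9 to 99.96%), SIN3A at 42 (71.2%, 57.9 to 82.2%) and RCOR1 at 29 (49.2%, 35.9 to 62.5%). At the 897 RCOR3-only peaks at REST, SIN3B was present at 704 (78.5%, 75.6 to 81.1%), SIN3A at 158 (17.6%, 15.2 to 20.3%) and RCOR1 at 26 (2.90%, 1.90 to 4.22%). REST sites with RCOR2 therefore had more often SIN3A and RCOR1 as well. Those sites also ranked higher by REST score, as given below, and the part of REST score in this difference was not tested.

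Shared sites away from REST seldom had a listed peak of the other proteins. Outside the chromosome X stretch the lists held 60 RCOR1, 1292 SIN3A and 5294 SIN3B peaks. An RCOR1 peak could thus lie at few sites of any kind. Of the 190, SIN3B was present at 9 (4.74%, 2.19 to 8.80%), SIN3A at 4 (2.11%, 0.577 to 5.30%) and RCOR1 at 1, and 177 (93.2%, 88.6 to 96.3%) had no peak of REST, RCOR1, SIN3A or SIN3B. RCOR2-only peaks away from REST looked similar, with SIN3B at 14 of 183 (7.65%, 4.25 to 12.5%) and SIN3A at 3. RCOR3-only peaks away from REST had SIN3B at 266 of 2581 (10.3%, 9.16 to 11.5%) and SIN3A at 63 (2.44%). Counted over RCOR3 peaks, the shared sites away from REST had SIN3B at 10 of 191 (5.24%, 2.54 to 9.42%), an interval that overlapped that of the RCOR3-only peaks.

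**Figure D4:**
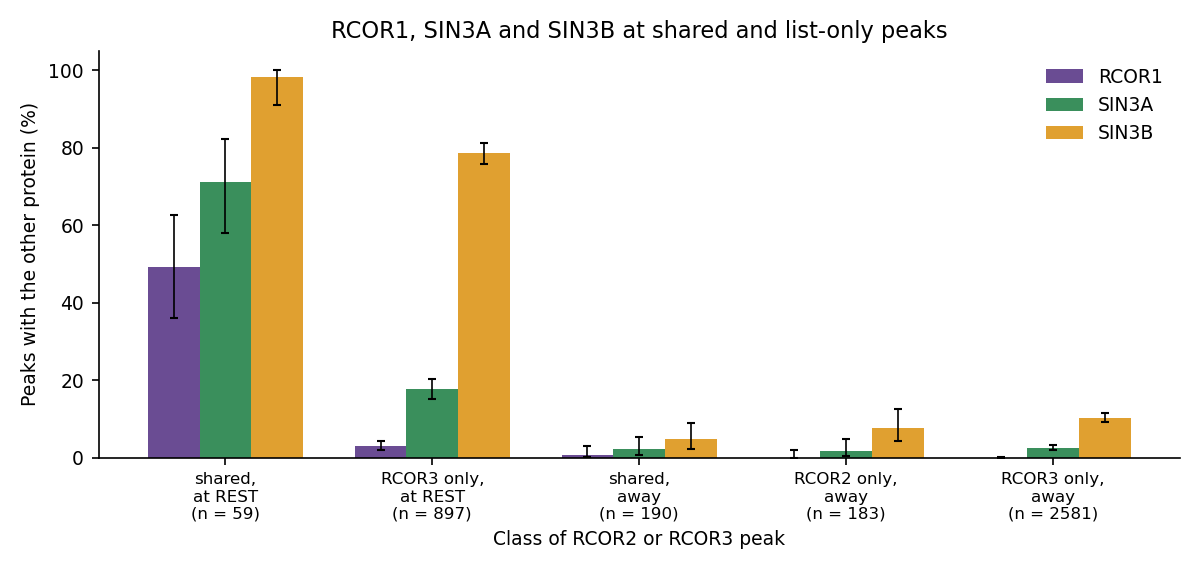
Share of peaks with an RCOR1, SIN3A or SIN3B peak less than 400 bp away (vertical axis, %) in 5 classes of RCOR2 and RCOR3 peaks (horizontal axis, number of peaks in brackets). Shared classes are counted over RCOR2 peaks, and bars are exact 95% Clopper-Pearson intervals. SIN3B reached 98.3% at shared sites with REST and 4.74% at shared sites without it.

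From the side of REST, RCOR2 was found almost only where RCOR3 was found as well. Of 3080 REST peaks outside the chromosome X stretch, 74 had RCOR2 (2.40%) and 1003 had RCOR3 (32.6%). RCOR2 and RCOR3 were both present at 69, RCOR3 without RCOR2 at 934, RCOR2 without RCOR3 at 5, and neither at 2072. The REST score percentile had a median of 98.1 (interval of the median 95.5 to 98.8) where both were present, 80.9 (79.1 to 82.4) with RCOR3 but not RCOR2, and 37.0 (35.2 to 37.9) with neither. In the highest 10% of REST scores, which starts at 69.34, RCOR3 was at 297 of 308 REST peaks (96.4%) and RCOR2 at 49 (15.9%). Between percentiles 80 and 90 of the REST list, RCOR3 was still at 245 of 309 (79.3%), while RCOR2 was at 7 (2.27%). Further down, RCOR3 was at 53.8%, 35.9%, 19.9% and 11.5% of REST peaks in successive bands of 10 points, and at 6.04 to 7.69% in the 4 bands below percentile 40. RCOR2 was at 0 to 2.11% in all bands below percentile 80, with 7 of 332 REST peaks (2.11%) between percentiles 20 and 30. Of the 69 REST peaks with both proteins, 10 lay in the lower-scoring part of the REST list, under percentile 50. The 74 REST peaks with RCOR2 lay at 64 RCOR2 peaks, and the 69 with both proteins at 59. Some RCOR2 peaks thus had more than 1 REST peak in reach, so the low-scoring REST peaks counted here need not be separate sites.

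Both proteins lay close to the centre of the REST peak. At shared sites the RCOR2 midpoint lay a median of 20 bp from the REST midpoint and the RCOR3 midpoint a median of 10 bp. Within 20 bp of REST were 36 of 59 RCOR2 peaks (61.0%) and 46 of 60 RCOR3 peaks (76.7%). RCOR3-only peaks at REST were within that distance in 488 of 897 cases (54.4%). Those RCOR3-only peaks also ranked lower, at a median percentile of 71.4 against 98.8 for shared RCOR3 peaks at REST. The part of rank in this difference was not tested. Starts lay on a grid of 20 bp, so the order of medians of 20 and 10 bp carries little information.

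Of the 5 RCOR2 peaks at REST without an RCOR3 peak, 3 lay at REST peaks under percentile 50 of their list. The highest-ranked was chr7:128479031-128479071, with an RCOR2 score of 16.58 (percentile 90.8) and a REST score of 13.04 (percentile 28.7). The peaks at chr4:3011971-3012011 and chr11:80705731-80705791 both scored 10.55 for RCOR2 and 11.85 for REST, and the former is the one inside the 3060 bp RCOR3 interval. At chr19:10249811-10249871 RCOR2 scored 10.55 and REST 43.26. At chr8:73814771-73814831 RCOR2 scored 7.16, at percentile 1.03, and REST 31.02. The last 2 were named after their values were seen. SIN3B was present at 3 of the 5 (14.7 to 94.7%), SIN3A at 1 (0.505 to 71.6%) and RCOR1 at none (0 to 52.2%). Over all 64 RCOR2 peaks at REST, SIN3B was present at 61 (95.3%), SIN3A at 43 (67.2%) and RCOR1 at 29 (45.3%).

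RCOR3-only peaks at REST reached percentile 99.6 of their own list. The highest were chr4:127122351-127122391 with an RCOR3 score of 88.65, chr4:151643371-151643411 with 84.47 and chr6:121438711-121438911 with 72.76, at REST scores of 289.22, 209.81 and 333.08. SIN3A and SIN3B were present at all 3 and RCOR1 at the latter 2, and the nearest RCOR2 midpoint was between 964540 and 1389410 bp away. Of the 50 highest-scoring RCOR3 peaks, 12 lay at REST without RCOR2 and 1 lay outside REST without it. That peak was chr11:120767051-120767091, which scored 50.18.

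RCOR2-only peaks away from REST reached percentile 94.5, at chr8:24368731-24368771, where RCOR2 scored 18.09 and the nearest RCOR3 midpoint was 182840 bp away. The next highest were chr9:4260971-4261011 and chr9:46671251-46671311, both at 17.34. All 3 of these peaks came from chromosomes 8 and 9, where the RCOR3 list was sparse. After the highest, the strongest RCOR3-only peaks away from REST were chr7:144752891-144753011 with a score of 40.98 and chr4:57784931-57785051 with 40.14. None of these 6 sites had RCOR1, SIN3A or SIN3B. That was also so for 167 of 183 RCOR2-only peaks (91.3%) and 2289 of 2581 RCOR3-only peaks (88.7%) away from REST.

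Some shared sites ranked very differently in their 2 lists. RCOR3 exceeded RCOR2 most at chr4:154703271-154703331, with percentile 98.7 for RCOR3 and 2.75 for RCOR2. At chr8:14072711-14072751 the intervals of both were identical, and RCOR3 stood at percentile 99.8 with a REST score of 838.04, while RCOR2 stood at percentile 5.15 with a score of 8.54. At chr15:84657311-84657351 the percentiles were 99.8 for RCOR3 and 6.52 for RCOR2. All 3 lay at REST sites with every other cofactor present. The opposite order was found away from REST, at chr6:37760611-37760651 (percentile 96.5 for RCOR2, 14.9 for RCOR3), chr6:85857391-85857451 (93.02 and 14.9) and chr2:177297091-177297271 (67.5 and 0.456). None of them had another cofactor, like 177 of the 190 shared sites away from REST.

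Shared and unshared RCOR2 peaks were of similar width, with a median of 60 bp in both and widths over 100 bp in 56 of 249 (22.5%, 17.5 to 28.2%) against 34 of 188 (18.1%, 12.9 to 24.3%). Shared RCOR3 peaks more often had the narrowest width. The minimum width of 40 bp was found in 131 of 251 shared RCOR3 peaks (52.2%, 45.8 to 58.5%) and in 1319 of 3478 RCOR3-only peaks (37.9%, 36.3 to 39.6%). At REST this share was 65% (39 of 60, 51.6 to 76.9%) for shared peaks and 46.4% (416 of 897, 43.1 to 49.7%) for RCOR3-only peaks. Away from REST it was 48.2% (92 of 191, 40.9 to 55.5%) against 35.0% (903 of 2581, 33.1 to 36.9%). Widths of 200 bp or more were found in 19 of 251 shared (7.57%, 4.62 to 11.6%) and 206 of 3478 RCOR3-only peaks (5.92%, 5.16 to 6.76%), whose intervals overlapped. Within pairs, the RCOR3 interval was the narrower in 100, equal in 77 and the wider in 72.

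Outside the chromosome X stretch, RCOR2 peaks mostly lay far from one another. Within that stretch, its 22 RCOR2 peaks had a median gap of 1100 bp. The median distance to the nearest other RCOR2 midpoint was 781890 bp, and 18 of 437 RCOR2 peaks (4.12%) had another within 10000 bp. Shared RCOR2 peaks (11 of 249, 4.42%, 2.23 to 7.77%) and RCOR2-only peaks (7 of 188, 3.72%, 1.51 to 7.52%) did not differ beyond counting error. For RCOR3, 600 of 3729 peaks (16.1%) had a neighbour of the same list that close, with 15.9% of shared and 16.1% of RCOR3-only peaks. A longer list brings its peaks closer together, and the part of list length in the difference between RCOR2 and RCOR3 was not tested. A neighbour within 1000 bp was found for 15 of 251 shared (5.98%, 3.38 to 9.67%) and 89 of 3478 RCOR3-only peaks (2.56%, 2.06 to 3.14%), and at REST for 7 of 60 (11.7%, 4.82 to 22.6%) and 12 of 897 (1.34%, 0.693 to 2.33%). The shared peaks so counted include the 2 sets of 2 RCOR3 peaks at the same RCOR2 site. Chaining peaks of both lists with gaps of up to 10000 bp gave 266 runs holding both proteins, of which 225 were 1 RCOR2 peak with 1 RCOR3 peak. The largest run held 2 RCOR2 and 3 RCOR3 peaks, within 6480 bp at chr17:26769351-26775831, with no REST peak at any of them.

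The chromosomes shared their sites unequally. On chromosome 8 lay 54 RCOR2 peaks (12.4% of the list), 92 RCOR3 peaks (2.47%) and 164 REST peaks (5.32%), so that the ratio of RCOR3 to RCOR2 peaks was 1.70. On the autosomes other than 8 and 9 that ratio was between 7.13 and 13.5. Of the RCOR2 peaks on chromosome 8, 14 of 54 were shared (25.9%, 15.0 to 39.7%). Chromosome 9 held 18 RCOR2 peaks (4.12%) but 40 RCOR3 peaks (1.07%), against 182 REST peaks (5.91%). There, 8 of 18 RCOR2 peaks were shared (44.4%, 21.5 to 69.2%). On all other chromosomes together, 227 of 365 were shared (62.2%, 57.0 to 67.2%), with chromosomes 2 (28 of 36, 77.8%) and 4 (28 of 37, 75.7%) among the highest. The share on chromosome 9 was not particular to it. Its interval included 62.2%, and chromosomes 3 (7 of 17, 41.2%) and 10 (11 of 24, 45.8%) had similar shares.

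Chromosome 8 alone held 40 of the 188 RCOR2-only peaks (21.3%, 15.7 to 27.8%), against 14 of the 249 shared ones (5.62%, 3.11 to 9.25%). Of its 54 RCOR2 peaks, 45 lay between 60 and 110 Mb, and 34 of those were RCOR2-only. The same stretch held 46 of the 92 RCOR3 peaks and 74 of the 164 REST peaks of the chromosome. The limits of this stretch were not planned beforehand, so the larger part of the RCOR2 peaks inside it is description only. The RCOR2-only share in it (34 of 45) cannot be set apart from that of the whole chromosome (40 of 54), which includes the same 45 peaks. Away from REST, and from RCOR2 percentile 40 upward, 10 of 29 RCOR2 peaks on chromosome 8 were shared (34.5%, 17.9 to 54.3%) and 136 of 208 elsewhere (65.4%, 58.5 to 71.8%). Below percentile 40, 1 of 21 was shared on chromosome 8 and 43 of 115 elsewhere (37.4%, 28.5 to 46.9%). On chromosome 9, all 6 RCOR2 peaks at REST were shared and 2 of the 12 away from REST. The few RCOR3 peaks of these chromosomes were in turn shared more often, 14 of 92 on chromosome 8 (15.2%, 8.58 to 24.2%) and 8 of 40 on chromosome 9 (20%, 9.05 to 35.6%), against 229 of 3597 elsewhere (6.37%, 5.59 to 7.21%). No input library was used here, so on chromosomes 8 and 9 presence in 1 list only cannot be told apart from differences between the lines in chromosome copy number or from the background used in peak calling.

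**Figure D5:**
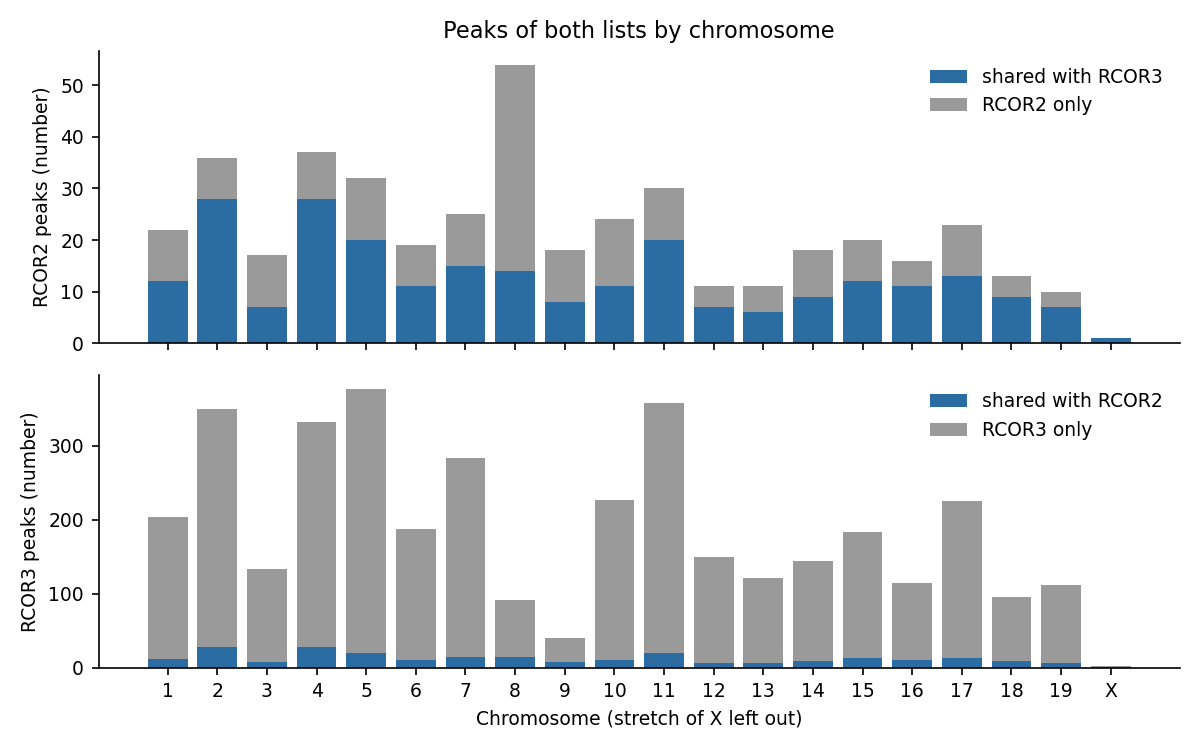
Number of RCOR2 peaks (upper panel) and RCOR3 peaks (lower panel, other scale) by chromosome, split into shared and list-only peaks. Chromosome 8 has the most RCOR2 peaks (54, of which 14 are shared), whereas chromosomes 8 and 9 have fewer RCOR3 peaks (92 and 40) than any other autosome.

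On chromosome X, apart from the stretch left out, there were 1 RCOR2 peak, 2 RCOR3 peaks and 24 REST peaks. The RCOR2 peak was shared with RCOR3 at a REST site.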

How the data were processed

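The authors deposited 1 list per library with 4 columns, chromosome, start, end and a score, and the file names give the build mm8. The score deposited by the authors has no stated meaning, and the aligner, peak caller, control and threshold are named in no source used here. Per the labels' protocols, libraries were amplified with 15 PCR cycles and fragments of about 250 bp were sequenced on a Genome Analyzer. Positions are printed as deposited, as their base (0 or 1) is unknown.

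Midpoints were matched when less than 400 bp apart. Percentiles are mid-ranks, so tied peaks share one. Shares have exact 95% Clopper-Pearson intervals and medians exact binomial order-statistic intervals. No test was made, since each protein has 1 library. Matching and intervals were tested on simulated data. Named sites follow a rule: the 5 shared pairs at and away from REST with the highest lower percentile, the 3 highest list-only peaks of each list at and away from REST, the 3 largest percentile differences each way, 2 pairs on each side of the limit and the largest run. The members and lists were chosen with earlier results of these data known. Python 3.11.15, scipy 1.17.1 and pandas 2.3.3 were used.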

Additional observations from a re-analysis of the deposited data

Results flagged for a closer look

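The stretch of chromosome X left out of every comparison held 22 RCOR2 peaks and 15 RCOR3 peaks. The RCOR2 peaks spanned chrX:165313931-165351871 and the RCOR3 peaks chrX:165316431-165335651. Of them, 11 RCOR2 and 12 RCOR3 peaks were shared, and 15 RCOR2 and 13 RCOR3 peaks lay at REST. RCOR2 scores there had a median of 13.9 (7.16 to 37.69), at a median percentile of 75.2 of the full list, and RCOR3 scores a median of 12.55 (10.45 to 25.93), at percentile 49.3. RCOR2 peaks in the stretch were wide, with a median of 180 bp and a maximum of 1780 bp, while RCOR3 peaks there had a median of 60 bp and a maximum of 180 bp.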

How the results depend on the processing

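Across 20 results and their alternatives, 118 of 144 values stayed within the interval of the main value and 26 left it, and none of them exchanged the order of sharing at and away from REST within the RCOR2 list. In the RCOR3 list that order was exchanged by interval overlap (6.31% at REST, 5.24% away) and with the chromosome X stretch kept (7.22% and 6.96%), all with overlapping intervals. Other midpoint limits (under 200 bp and under 1000 bp) moved no value out of its interval. Some of the 118 values could not move, as the RCOR2 share at REST does not depend on the RCOR3 list. The median percentile of RCOR3-only peaks had an interval without width (49.29 to 49.29), so any shift counted as leaving it. With intervals as deposited and an overlap of at least 1 bp, 46.7% of RCOR2 and 5.47% of RCOR3 peaks were shared, 11.4% and 21.7% lay at REST, and away from REST 40.8% and 5.24% were shared. From RCOR3 percentile 80 upward away from REST 21.4% were then shared, against 12.9% at REST. This alternative and the others for that percentile range were chosen after seeing the data. With the RCOR3 list limited to its 447 highest peaks, 27.2% of RCOR2 and 26.6% of RCOR3 peaks were shared, 64.9% of RCOR3 peaks lay at REST, 17.4% of RCOR2 peaks away from REST were shared, and so were 18.6% of RCOR3 peaks at and 41.4% away from REST. In another alternative, only peaks at or above the median score of their list were kept. Because of tied scores this left 282 of 437 RCOR2 and 2099 of 3729 RCOR3 peaks. Of the RCOR3 peaks kept, 7.96% were shared (9.02% away from REST) and 34.0% lay at REST. Of the RCOR2 peaks kept at REST, 97.7% were shared. With REST midpoints less than 5000 bp away, 27.5% of RCOR3 peaks lay at REST. Without chromosomes 8 and 9, 62.2% of RCOR2 peaks were shared (56.9% away from REST), and the median percentiles were 55.6 for shared RCOR2, 20.1 for RCOR2-only and 49.4 for RCOR3-only peaks. With the chromosome X stretch kept they were 56.3 for shared RCOR2 and 49.28 for RCOR3-only peaks, and with neighbouring peaks merged 49.0 for RCOR3-only peaks. Beyond these constructions the cause of each shift was not tested. No paired analysis was possible because each protein has 1 library. Read depth is unknown, so how far it limits each list could not be given.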

Other observations

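Scores of both lists fell on regular steps. In the RCOR2 list, 413 of 437 scores (94.5%) were within 0.01 of a whole multiple of 0.7537, and in the RCOR3 list 3552 of the 3698 scores up to 60 (96.1%) were within 0.01 of a whole multiple of 0.8363. The commonest score was 14 steps in the RCOR2 list (10.55) and 13 steps in the RCOR3 list (10.87). The meaning of a step is not stated by the authors.

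RCOR2 scores below 10.55 formed a small group of 32 peaks, of which 7 lay at REST, 13 were shared with RCOR3, 8 were on chromosome 8 and 6 were at least 200 bp wide. Of the 405 other RCOR2 peaks, 10 were that wide.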
